A study of Homo sapiens with 4 samples.

Results

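The Fanconi anaemia pathway genes described here are a set of 10 genes chosen by name: 8 of the core complex (FANCA, FANCB, FANCC, FANCE, FANCF, FANCG, FANCL and FANCM) and the pair FANCD2 and FANCI that the core complex modifies. Of these 10, 7 had a probe set annotated to them alone and could be described, namely 6 core genes and FANCI, among 17148 genes measured in this way. FANCA and FANCD2 were not analysed here, and the probe set of FANCL also carries the symbol VRK2 and was not assigned to either gene. The core complex could therefore be set against FANCI only, not against FANCD2.

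The cells were WM35, an established human melanoma line of the radial growth phase. They received C646, a small molecule that blocks the acetyltransferases p300 and CBP, at 20 µM for 24 h or 6 h, or the solvent DMSO at 0.2% for 24 h or 6 h. The study asked how the transcripts of melanoma cells respond when p300 activity is blocked. Each of the 4 conditions was measured on 1 Affymetrix Human Exon 1.0 ST array, so a difference between arrays has no replicate check, no error and no p-value.

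The Fanconi pathway repairs DNA interstrand crosslinks, lesions that tie both strands together and stop replication forks. FANCM binds the blocked fork and anchors the core complex, whose ubiquitin ligase subunit FANCL works with FANCB, FANCG and the other core proteins to attach ubiquitin to FANCD2 and FANCI. The modified pair then brings in nucleases, translesion polymerases and homologous recombination proteins, and the pathway acts mainly in cells that are copying their DNA. Inherited loss of any of several of these genes causes Fanconi anaemia, with bone marrow failure and cancer.

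All values are log2 expression as deposited by the authors, so a difference of 1 is 2-fold. The 4 arrays had medians of 4.39 to 4.41, and their correlations over all probe sets were 0.975 to 0.979 for the C646 array of 24 h with the others and 0.991 to 0.996 among the others. Probe sets with a mean of at least 3.96 over the 4 arrays were kept, 16579 in all, and the 7 measured members are among them. All 4 melanocyte markers with a probe set of their own (MITF, SOX10, PMEL and MLANA) were kept, as were 2 of 14 markers of keratinocytes, fibroblasts, leukocytes and endothelium, KRT10 and COL1A1.

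After 24 h of C646, most measured Fanconi genes were lower than in DMSO. FANCG, FANCI, FANCB and FANCE were at least 2-fold lower, FANCM and FANCC were lower by less than 2-fold, and FANCF was higher. Of the 7 genes, 4 were thus at least 2-fold lower, against 2.50% of the 16579 kept probe sets. None was 2-fold higher, against 1.14% of kept probe sets, and 6 lay below 0, against 45.0%. The median difference over the 7 genes was -1.08, and over all kept probe sets it was 0.030. The lowest of a gene's 4 values lay on the C646 array of 24 h in 6 of the 7 genes, all but FANCF, and in 30.3% of kept probe sets.

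**Figure D1:**
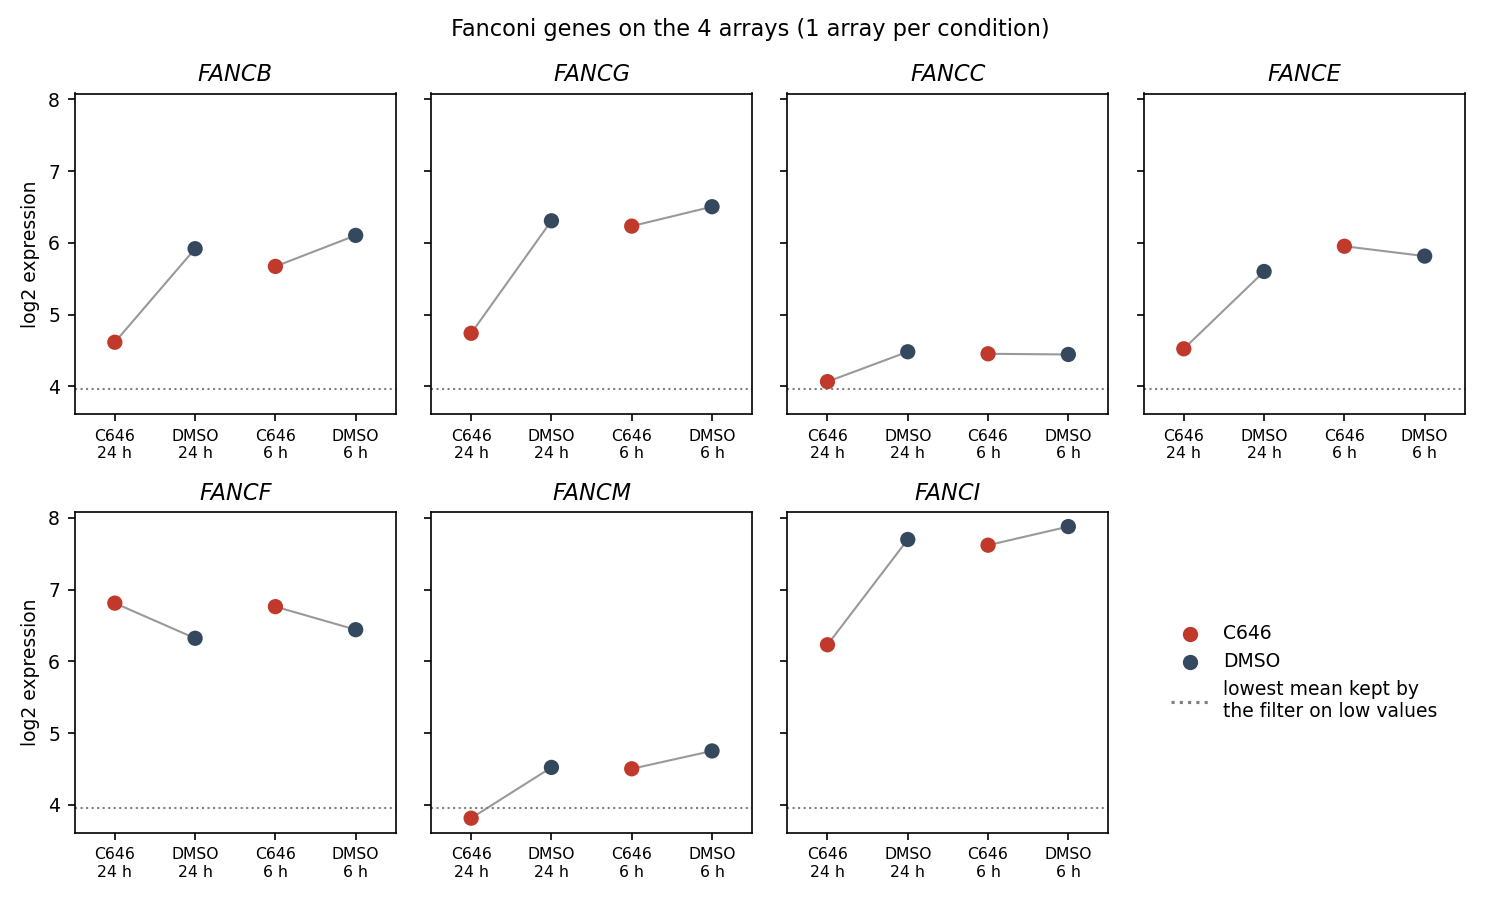
Log2 expression (vertical axis) of the 7 measured Fanconi genes on each of the 4 arrays (horizontal axis: C646 at 24 h, DMSO at 24 h, C646 at 6 h, DMSO at 6 h), with red points for C646 and dark points for DMSO, grey lines joining the arrays of the same time, and a dotted line at the lowest mean kept, 3.96. The C646 point of 24 h is the lowest in every gene shown but FANCF, and in FANCM it lies below the dotted line at 3.81.

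FANCG belongs with FANCA to a subcomplex of the core and helps to assemble it. It read 4.74 on the C646 array of 24 h and 6.31 on the DMSO array of 24 h, and 6.23 on the C646 array of 6 h and 6.50 on the DMSO array of 6 h. The C646 array of 24 h stood apart from the other 3. The difference between C646 and DMSO was -1.57 at 24 h, which is 2.97-fold lower and the lowest of the 7 genes, and -0.27 at 6 h. Of all kept probe sets, 1.22% had a lower difference at 24 h. The RefSeq promoter of FANCG is shown because this gene had the lowest difference, up to the annotated start on the minus strand of GRCh38.p14, chr9:35079943-35080192. It is printed 5′ to 3′, with capitals reserved for matches to the words searched, of which it has none.
FANCG: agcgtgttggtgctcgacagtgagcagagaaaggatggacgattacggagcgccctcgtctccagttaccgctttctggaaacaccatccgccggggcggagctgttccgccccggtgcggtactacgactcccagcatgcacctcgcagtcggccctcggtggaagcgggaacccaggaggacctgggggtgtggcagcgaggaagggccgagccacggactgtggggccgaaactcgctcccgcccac

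FANCB, carried on the X chromosome, encodes the partner of the ligase FANCL in the catalytic module of the core complex. Its values were 4.61 with C646 and 5.92 with DMSO at 24 h, and 5.67 with C646 and 6.10 with DMSO at 6 h. The C646 array was the lower one at both times. The difference was -1.30 at 24 h, or 2.47-fold lower, and -0.43 at 6 h, the lowest of the 7 genes at that time. At 6 h, 2.98% of kept probe sets had a lower difference than FANCB.

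FANCE, FANCC and FANCF form the module of the core complex that holds the substrate, and their transcripts went apart. FANCE, which binds FANCD2 directly, read 4.52 with C646 and 5.60 with DMSO at 24 h, and 5.95 with C646 and 5.81 with DMSO at 6 h. It was thus 2.11-fold lower at 24 h, a difference of -1.08, while at 6 h the difference was 0.14. The C646 array of 6 h gave the highest of its 4 values and the C646 array of 24 h the lowest.

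FANCC read 4.06 with C646 and 4.48 with DMSO at 24 h, and 4.45 with C646 and 4.44 with DMSO at 6 h. The 3 other arrays lay within a narrow range above the C646 array of 24 h. Its differences were -0.42 at 24 h and 0.0095 at 6 h. All 4 values are close to the lowest mean kept, 3.96, and near background a difference on this scale can understate a change in the transcript. Of the RefSeq promoters of FANCC, only the one that starts furthest upstream holds any of the words searched. It is shown because it holds 2 words of the kind bound by E2F, the transcription factors of S phase genes. It lies on the minus strand of GRCh38.p14, chr9:95317710-95317959, with capitals for GCGCGAAA (172 bases before the start, the other strand of TTTCGCGC), TTTCCCGC (46 bases before the start) and TTTGAA (248 bases before the start).
FANCC: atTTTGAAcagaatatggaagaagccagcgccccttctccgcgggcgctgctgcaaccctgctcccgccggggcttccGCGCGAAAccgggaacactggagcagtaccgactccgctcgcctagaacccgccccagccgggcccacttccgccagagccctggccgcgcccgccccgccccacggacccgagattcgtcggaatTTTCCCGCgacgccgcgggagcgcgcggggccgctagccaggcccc

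FANCF, an adaptor that links the FANCC and FANCE module to the rest of the core, was the exception. It read 6.81 with C646 and 6.32 with DMSO at 24 h, and 6.76 with C646 and 6.44 with DMSO at 6 h. Both C646 arrays lay above both DMSO arrays. The difference was 0.49 at 24 h, which is 1.40-fold higher, and 0.32 at 6 h, and neither reached 2-fold. Of all kept probe sets, 92.5% had a lower difference at 24 h and 94.8% at 6 h. Its RefSeq promoter is shown for contrast with that of FANCG, from the minus strand of GRCh38.p14, chr11:22625824-22626073, with capitals for the CCAAT box that lies 92 and 52 bases before the start.
FANCF: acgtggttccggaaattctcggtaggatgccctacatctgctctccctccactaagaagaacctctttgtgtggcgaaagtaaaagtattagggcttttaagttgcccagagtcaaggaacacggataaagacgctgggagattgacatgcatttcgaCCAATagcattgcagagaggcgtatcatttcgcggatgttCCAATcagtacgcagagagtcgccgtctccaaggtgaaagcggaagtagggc

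The promoter words were searched on both strands of the RefSeq promoters, from 250 bases before to 50 bases after each start, which matched 9 of the 10 genes, all but FANCI. The E2F words were TTTGGCGC, TTTCCCGC, TTTCGCGC and TTTGCCGC, and 3 of the 9 genes (FANCA, FANCC and FANCD2) held at least 1 of them, against 3.31% of all 35116 promoters. The cell cycle homology word TTTGAA was found in FANCC alone, against 15.2% of all promoters. The CCAAT box was found in 3 genes (FANCA, FANCF and FANCM), against 34.6% of all promoters. Members were counted by gene, over any promoter of the gene, while the shares are of single promoters. The counts and shares are thus not in the same unit, and FANCC has more than 1 promoter. No word overlapped another. The 3 measured core genes that were at least 2-fold lower at 24 h, FANCB, FANCE and FANCG, held none of these words in this window, which says only that these letters are not in it.

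FANCM is a DNA translocase that brings the core complex to the blocked fork. It read 3.81 with C646 and 4.52 with DMSO at 24 h, and 4.50 with C646 and 4.75 with DMSO at 6 h. The C646 array was the lower one at both times, and its 24 h value was below the lowest mean kept, 3.96. The difference was -0.71 at 24 h, or 1.63-fold lower, and -0.25 at 6 h.

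FANCI, which is modified together with its partner FANCD2, read 6.23 with C646 and 7.70 with DMSO at 24 h, and 7.62 with C646 and 7.88 with DMSO at 6 h. The C646 array of 24 h lay apart from the other 3. The difference was -1.47 at 24 h, or 2.77-fold lower, and -0.26 at 6 h. FANCI has 2 further probe sets that also carry the symbol POLG, and these were not assigned to it. By Euclidean distance over the 24 h difference, the 6 h difference and the difference between the DMSO arrays, the 5 nearest of 10626 other named genes were DEPDC1B, the helicase gene ERCC6L, the clamp loader gene RFC2, the chromatin assembly gene CHAF1B and the kinesin gene KIF22. Their 24 h differences lay between -1.51 for CHAF1B and -1.40 for RFC2, and their 6 h differences between -0.32 for ERCC6L and -0.19 for CHAF1B.

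Against FANCI, the core genes were spread widely at 24 h. The 6 core genes ran from -1.57 for FANCG to 0.49 for FANCF, with a median of -0.89, and the FANCI difference of -1.47 lay near their low end, with only FANCG below it. The core median was 0.57 above FANCI at 24 h and 0.14 above it at 6 h, where the core median was -0.12. With FANCI as the only measured gene on its side and a core range of 2.06 at 24 h, the difference of 0.57 is smaller than the spread among core genes. It became 0.28 when the 60th percentile was the lowest mean kept, which left out FANCC and FANCM, and 1.03 when probe sets with several symbols were included. In that last setting FANCL joined the core, and a probe set shared with POLG stood for FANCI. Its 24 h difference was lower than that of FANCG, so the place of FANCI above FANCG depends on the probe set used.

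**Figure D2:**
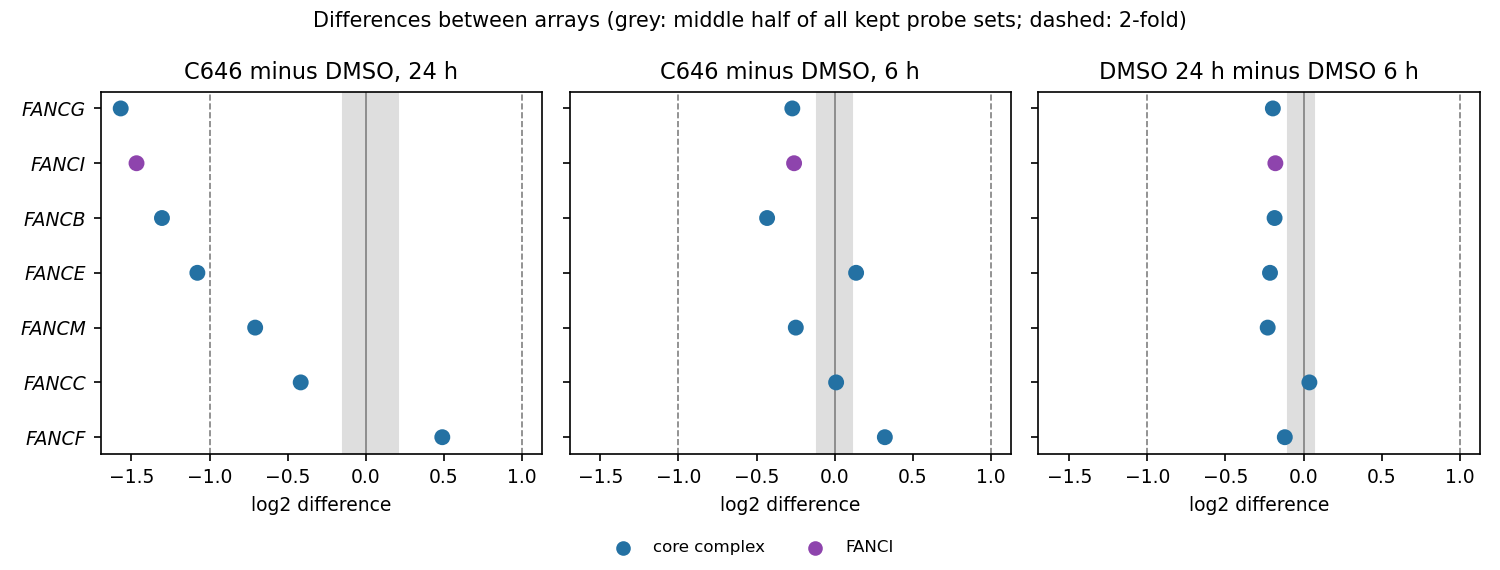
Log2 differences (horizontal axes) of the 7 measured Fanconi genes (rows) between C646 and DMSO at 24 h, between C646 and DMSO at 6 h, and between DMSO at 24 h and DMSO at 6 h, with core genes in blue, FANCI in purple, the middle 50% of all kept probe sets as a grey band and 2-fold as dashed lines. At 24 h the genes spread from -1.57 to 0.49, and in the other panels all 7 stay inside the 2-fold lines.

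At 6 h the differences were small. None of the 7 genes was 2-fold lower, against 0.115% of kept probe sets, and none was 2-fold higher, against 0.127%. The differences ran from -0.43 for FANCB to 0.32 for FANCF, with a median of -0.25, against -0.0024 over all kept probe sets. Across both times, 4 genes (FANCB, FANCG, FANCM and FANCI) were below 0 at each, FANCF was above 0 at each, and FANCC and FANCE lay on opposite sides of 0. At 6 h alone, 50.6% of kept probe sets were below 0. How many kept probe sets had the same or opposite signs at both times was not counted, so these counts have no background beside them. Every one of the 7 differences was further from 0 at 24 h than at 6 h, as were 66.3% of kept probe sets. The 24 h difference lay at least 2-fold below the 6 h difference for 3 genes, at -1.30 for FANCG, -1.22 for FANCE and -1.21 for FANCI, against 2.20% of kept probe sets.

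Between the DMSO arrays themselves, 24 h lay below 6 h for 6 of the 7 genes, by -0.12 for FANCF to -0.23 for FANCM, and FANCC was at 0.038; 54.8% of kept probe sets lay below 0. The median was -0.19, against -0.014 over all kept probe sets. No member differed 2-fold there, against 0.0905% of kept probe sets that were 2-fold lower and 0.0543% that were 2-fold higher. Between the C646 arrays, 24 h lay at least 2-fold below 6 h for FANCB at -1.06, FANCE at -1.43, FANCG at -1.49 and FANCI at -1.39, 4 of the 7 genes against 2.41% of kept probe sets.

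**Figure D3:**
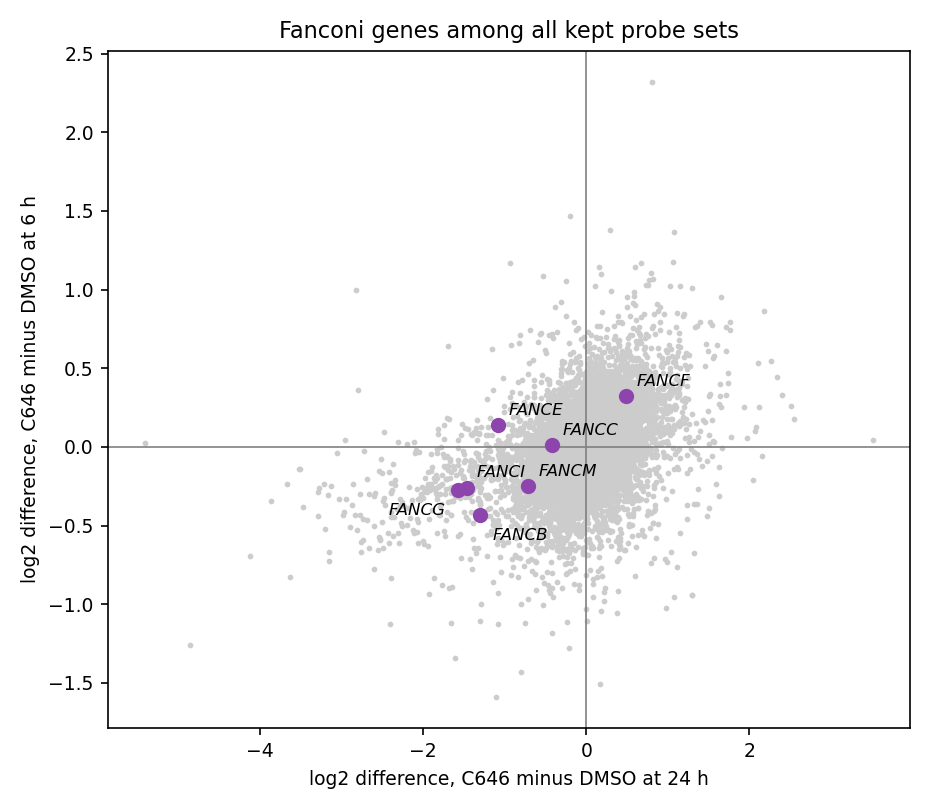
Log2 difference between C646 and DMSO at 24 h (horizontal axis) against that at 6 h (vertical axis) for the 16579 kept probe sets (grey) and the 7 measured Fanconi genes (purple, named). FANCF lies at the upper right at 0.49 and 0.32, FANCE lies left of 0 and above the horizontal line at -1.08 and 0.14, and FANCB, FANCG, FANCI and FANCM lie at the lower left.

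A treatment effect shared by both times was fitted with limma on all 4 arrays, with time as a term, which leaves 1 residual degree of freedom. The error of that fit comes from how far the times disagree, not from repeated cultures. No probe set passed at an adjusted p under 0.05, 0.00% of 16579, and no Fanconi gene did. Before adjustment, 1828 probe sets (11.0%) had a limma p under 0.05, and so did 3 of the 7 genes: FANCB at -0.87 ± 0.24 (SE), FANCF at 0.41 ± 0.12 and FANCM at -0.48 ± 0.14, each with a limma adjusted p of 0.448. The estimates were -0.92 ± 0.34 for FANCG and -0.86 ± 0.32 for FANCI. With the C646 array of 6 h left out and no time term, the count became 6 of the 7 genes, all but FANCF and all lower, against 6.90% of probe sets that passed as lower. That count sets a single C646 array against DMSO arrays of different times, which are not replicates, so it is no test of the treatment and its p-values are not given.

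The rest of the pathway was read from 6 further lists by role. Of 28 measured genes on them, 11 were at least 2-fold lower and none was 2-fold higher at 24 h, against 2.50% and 1.14% of kept probe sets. The median over the 28 was -0.63 at 24 h and -0.12 at 6 h. None of them differed 2-fold at 6 h, where only 0.115% of kept probe sets were 2-fold lower and 0.127% were 2-fold higher. At such shares the absence of a 2-fold gene says little about the 28.

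All 5 measured genes of proteins that work with the core complex were below 0 at 24 h, against 45.0% of kept probe sets. None was 2-fold lower, against 2.50%, and the median was -0.24. The lowest was UBE2T, the ubiquitin-conjugating enzyme that serves FANCL, at 5.17 with C646 and 5.93 with DMSO, a difference of -0.75. FAAP24, the DNA-binding partner of FANCM, was at -0.55, and FAAP20, the partner of FANCA, was the highest at -0.10.

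Both measured genes for removal of ubiquitin from FANCD2 and FANCI were at least 2-fold lower at 24 h, against 2.50% of kept probe sets. USP1, the protease that takes the ubiquitin off, read 5.62 with C646 and 7.03 with DMSO, a difference of -1.41, and was at -0.42 at 6 h. ATAD5, which guides USP1 to its targets on chromatin, read 4.41 with C646 and 6.57 with DMSO at 24 h, a difference of -2.16, and was at -0.45 at 6 h. WDR48, the cofactor of USP1, was not analysed here.

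Among the nucleases that cut out a crosslink, 3 of 7 measured genes were at least 2-fold lower at 24 h. The share of kept probe sets was 2.50%, and the list had a median of -0.34. EME1, the partner of the nuclease MUS81, was at -2.11, the exonuclease gene DCLRE1B at -1.99 and the crosslink exonuclease gene DCLRE1A at -1.22. The others lay between -0.34 for SLX4, the scaffold that gathers the nucleases, and 0.18 for ERCC1. MUS81 itself was at 0.049. None of the 4 translesion synthesis genes was 2-fold lower, a list too short to set apart from the share of 2.50%. They ran from -0.71 for the ubiquitin ligase gene RAD18 to -0.027 for REV3L, the catalytic subunit of polymerase zeta.

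Of the homologous recombination genes that are also Fanconi genes, 4 of 6 measured were at least 2-fold lower at 24 h. The share of kept probe sets that were 2-fold lower was 2.50%, and the median of the list was -1.41. XRCC2, a homologous recombination gene, read 5.44 with C646 and 7.85 with DMSO, a difference of -2.42. The helicase gene BRIP1 was at -2.08, the ubiquitin ligase gene RFWD3 at -1.57 and BRCA1 at -1.25, whereas PALB2, a binding partner of BRCA1, was at -0.13 and RAD51C at 0.27. Of the BLM dissolvasome, the complex that FANCM binds beside the core, BLM at -2.40 and its partner RMI1 at -1.83 were at least 2-fold lower, and TOP3A at -0.83 and RMI2 at -0.39 were not.

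**Figure D4:**
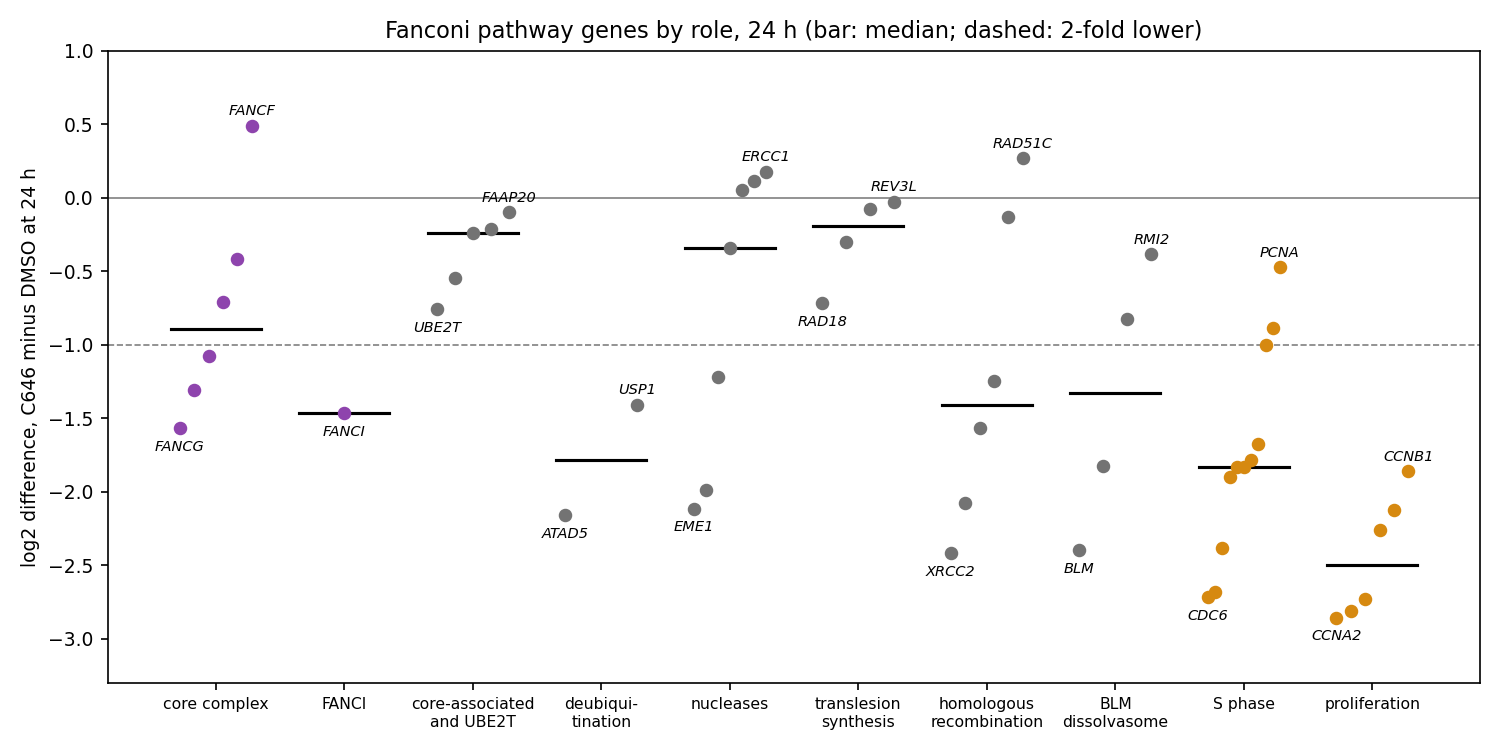
Log2 difference between C646 and DMSO at 24 h (vertical axis) for each measured gene of the Fanconi pathway grouped by role (horizontal axis), with core genes and FANCI in purple, other pathway genes in grey and S phase and proliferation genes in orange; the bar is the list's median and the dashed line is 2-fold lower. Within the core complex, the nucleases and the recombination genes, the points run from well below the dashed line to above 0, while the S phase and proliferation genes all lie below 0.

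Genes of dividing cells were also low on the C646 array of 24 h. Of 11 measured S phase genes 9 were at least 2-fold lower at 24 h, against 2.50% of kept probe sets. Their median was -1.83, with a range of -2.72 for CDC6 to -0.47 for PCNA, whose probe set is numbered among those of another chromosome. All 6 proliferation markers were at least 2-fold lower, against the same 2.50%, with a median of -2.50 and MKI67 at -2.81. At 6 h the medians were -0.047 for S phase and -0.44 for proliferation, and between the DMSO arrays they were -0.20 and -0.31. Over all kept probe sets the median was -0.0024 at 6 h and -0.014 between the DMSO arrays. The part of cell division in the Fanconi differences was not tested, and in a bulk sample fewer cells in S phase and less transcript per cell cannot be told apart.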

How the data were processed

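The authors deposited log2 expression values of 27631 gene-level probe sets on 4 arrays, made from 100 ng of total RNA each per the labels; the scale was read from the values. Per the submitters' processing notes, the build is hg19. The methods of summarisation and normalization were not given in the sources used here. GEO's platform annotation gave 20434 probe sets 1 symbol, 4227 several and 2970 none; 20362 symbols were updated through Entrez identifiers with RefSeq GRCh38.p14. Probe sets with several symbols were not named. The probe set with the highest mean stood for a gene, and probe sets at or above the 40th percentile of the means were kept (11052 were set aside).

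C646 minus DMSO was taken at each time and counted at 2-fold. The model over both times used limma 3.58.1 (R 4.3.3), a variance trend over intensity and Benjamini-Hochberg adjustment over all kept probe sets. Calculations, in Python 3.11.15 otherwise, were tested on simulated data. For limma the simulated treatment effect was the same at both times, so effects that differ between times were not covered. The number of arrays limits the precision. The text names all measured members, each pathway list's 2-fold genes and its highest and lowest, and the 5 genes nearest to FANCI. FAAP24, SLX4, MUS81, PALB2, TOP3A and MKI67 were added for their roles after their values were seen. Members and lists were chosen with earlier results of these data known. Alternatives were the filter, the gene summary, the scaling, the reference, the fold and each array left out. FANCA, FANCD2, FANCL and the further pathway genes without a probe set of their own were not analysed here.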

Additional observations from a re-analysis of the deposited data

Results flagged for a closer look

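FANCE and FANCC lay on opposite sides of 0 at the 2 times, and each time rests on 1 array per treatment, so the difference was not tested. How common opposite signs are among all kept probe sets was not counted. For FANCE, C646 minus DMSO was -1.08 at 24 h and 0.14 at 6 h, so the 24 h effect lay 1.22 lower (24 h minus 6 h, -1.22). For FANCC the differences were -0.42 at 24 h and 0.0095 at 6 h (24 h minus 6 h, -0.43). The 6 h value of FANCC is close to 0, and it was -0.0034 after quantile normalization and -0.0093 when the DMSO arrays were averaged as the reference.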

How the results depend on the processing

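Each condition has 1 array, so there were no replicate numbers to pair; arrays of the same time were matched through the time term of the limma fit. At 24 h, 4 of 7 members were at least 2-fold lower in the main setting. The count and the median (-1.08) stayed within 1.5 times of their main values under every alternative run for them. So did the difference of the effects and the DMSO difference. Several alternatives could not move them, since every member was kept and has 1 probe set of its own. Leaving out the filter or averaging a gene's probe sets thus returned the main values. The filter at the 60th percentile left out only FANCC and FANCM, neither of them in the count of 4. At 6 h, the median of -0.25 became -0.13 with the averaged DMSO arrays as the reference. The core median minus FANCI at 24 h, 0.57, became 0.28 when the 60th percentile was the filter and 1.03 with probe sets of several symbols included, an alternative chosen after seeing the data. That alternative also put a probe set shared with POLG in the place of FANCI's own. The limma fit called 0 members in all, and with 1 array left out it called 0 to 6, the 6 without the C646 array of 6 h, where 1 C646 array stands against DMSO arrays of different times and the count is no test of the treatment. Of 94 single-gene values under alternatives, 92 kept their sign and their side of 2-fold, and the other 2 were FANCC at 6 h. Many of the 92 were fixed in advance and say nothing about stability. Each of these genes has 1 probe set of its own, so only the scaling and the reference could move its value. Low signal limits FANCC and FANCM most.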
